A study of Mus musculus with 4 samples.

Results

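The miRNAs numbered miR-297, miR-466, miR-467 and miR-669 belong to families that have multiplied in rodents, and most of their hairpins lie side by side in an intron of Sfmbt2, a Polycomb-group gene. They were chosen here by name alone, as every row of the deposited miRNA table whose name carries one of these 4 numbers, with any letter and either arm. The rule found 26 entries among 921 miRNA entries and 94 piRNA entries. The table comes from small RNA sequencing of blood plasma in 2 AMI and 2 Sham libraries. All mice were C57BL/6, by the study's methods male and 8 weeks old. AMI mice had the left anterior descending artery of the heart tied off for good, and Sham mice the same surgery without the tie. The sources used here do not say whether each library came from mice of its own, so p-values measure the spread between these libraries, which may be technical.

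An animal miRNA is cut from one side, or arm, of a folded precursor, the hairpin, and the mature product is named 5p or 3p for the arm that it comes from. It guides an Argonaute protein to messenger RNAs that pair with its seed, bases 2 to 8, and so lowers their output. In the mouse, Sfmbt2 is an imprinted gene expressed from the paternal allele in extraembryonic tissue, and loss of the miRNA cluster in its intron impairs the placenta. Many of the mature products are made of simple alternating bases and differ from one another at few positions, so that a short read can match several hairpins.

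In RefSeq (GRCm38.p6, the patch series of mm10) 82 hairpins carry one of the 4 numbers. Of these, 72 lie inside Sfmbt2 on chromosome 2 (10370440 to 10595253), where they fill a stretch of 51.6 kb from 10466663 to 10518279. RefSeq places 0 other miRNA hairpins inside the gene. Matched by number and letter, the 26 entries correspond to 54 hairpins, 48 of them inside Sfmbt2. None of these 48 overlaps an exon of Sfmbt2, and all lie in intron 11 of the transcript Sfmbt2-205 (GENCODE M21). For 18 entries every matched hairpin lay inside Sfmbt2. For 3 entries, miR-466f, miR-466f-3p and the joint entry of miR-297a-3p, miR-297b-3p and miR-297c-3p, 1 further copy lies elsewhere, on chromosome 13 (Mir466f-4, 71107089 to 71107209) and chromosome 7 (Mir297-1, 10958437 to 10958512). For the other 5 entries, miR-466i-3p, miR-466i-5p, miR-466q, miR-467g and miR-467h, no hairpin lies in Sfmbt2. The name Sfmbt2 cluster thus holds for most of these miRNAs but not for those 5. For miR-466a-3p no hairpin was matched by name. Mir466, a hairpin inside Sfmbt2 that RefSeq lists without a letter, was counted as unmatched.

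**Figure D1:**
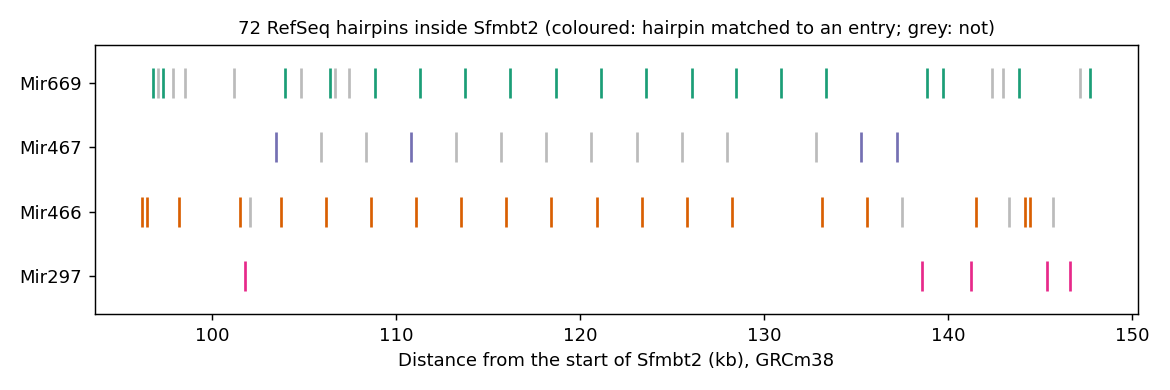
Each tick is 1 of the 72 hairpins inside Sfmbt2, in rows by miRNA number, against the distance in kb from the start of the gene. Coloured ticks are the 48 hairpins matched by number and letter to an entry of the plasma table. Grey ticks are the 24 not matched in this way.

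Mature sequences were taken from RefSeq, which had 4 of the 33 names in these entries, all 4 from hairpins outside Sfmbt2. They are shown for the simple repeats that they hold (5′ to 3′, the seed in capitals).
miR-466i-3p: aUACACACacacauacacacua
miR-466q: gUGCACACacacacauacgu
miR-467g: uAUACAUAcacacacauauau
miR-467h: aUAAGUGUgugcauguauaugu
miR-466i-3p lies on chromosome 13 (17747552 to 17747573, plus strand), miR-466q on chromosome 3 (28419988 to 28420007, plus strand), miR-467g on chromosome 5 (34732872 to 34732892, minus strand) and miR-467h on chromosome 9 (115381898 to 115381919, plus strand). The 4 seeds differ from one another. ACACAC was found in the first 3 of them, and its reverse complement GUGUGU in miR-467h. Of the 1679 mature mouse miRNAs with a RefSeq sequence, ACACAC is in 11 (0.655%) and GUGUGU in 17 (1.01%). These 1679 lack most of the 33 names, so both shares leave out the miRNAs of the cluster inside Sfmbt2. The longest stretch of alternating A and C was 11 bases in miR-466i-3p, 12 in miR-466q and 9 in miR-467g.

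The depth was 8952264 and 11410698 miRNA UMIs in AMI 1 and AMI 2, against 7449612 and 4831827 for Sham 1 and Sham 2. A UMI is a random tag that marks 1 captured molecule, so copies made by PCR are counted once. Levels below are in CPM, the usual scale of UMI counts relative to a library total, with each total scaled by TMM in edgeR on the assumption that most miRNAs do not differ. Intervals on shares cover counting error only. Hepatocyte miRNAs (3 of 3 listed were measured, 0 of them at 0) took 6.65% and 8.12% of the miRNA UMIs in the AMI libraries, against 0.593% and 2.09% in the Sham libraries. Heart muscle miRNAs (4 of 4, 0 at 0) took 8.44% and 8.22% against 1.15% and 0.696%. That list holds miR-1a and miR-133a, which by the study are abundant in skeletal muscle too. Red cell miRNAs (5 of 5, 0 at 0) took 13.7% and 10.1% against 18.3% and 11.8%, and platelet and myeloid miRNAs (3 of 3, 0 at 0) 4.72% and 4.59% against 6.09% and 5.49%. The part of these cell sources in the results below was not tested.

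The 26 entries together made up a small share of plasma miRNA, and that share was smaller in each AMI library than in either Sham library. They held 1009 UMIs in AMI 1 and 1393 in AMI 2, and 1492 in Sham 1 and 1366 in Sham 2. These are 0.0113% (exact 95% interval 0.0106% to 0.0120%) and 0.0122% (0.0116% to 0.0129%) of the miRNA UMIs in the AMI libraries and 0.0200% (0.0190% to 0.0211%) and 0.0283% (0.0268% to 0.0298%) in the Sham libraries. The AMI libraries thus had nearly as many UMIs of these miRNAs as the Sham libraries, from a larger total. The mean share was 0.0117% ± 0.000663 (SD, n = 2) over the AMI libraries, against 0.0241% ± 0.00583 (SD, n = 2) over the Sham libraries, a ratio of 0.486. After TMM scaling the summed level was 115 and 145 CPM in the AMI libraries, against 198 and 236 CPM in the Sham libraries, a ratio of 0.598. No test was made of the sums. In a total such as this, fewer cells of a source and less RNA released per cell cannot be told apart. Neither can less of these miRNAs and more of others, as shares and CPM are both relative.

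**Figure D2:**
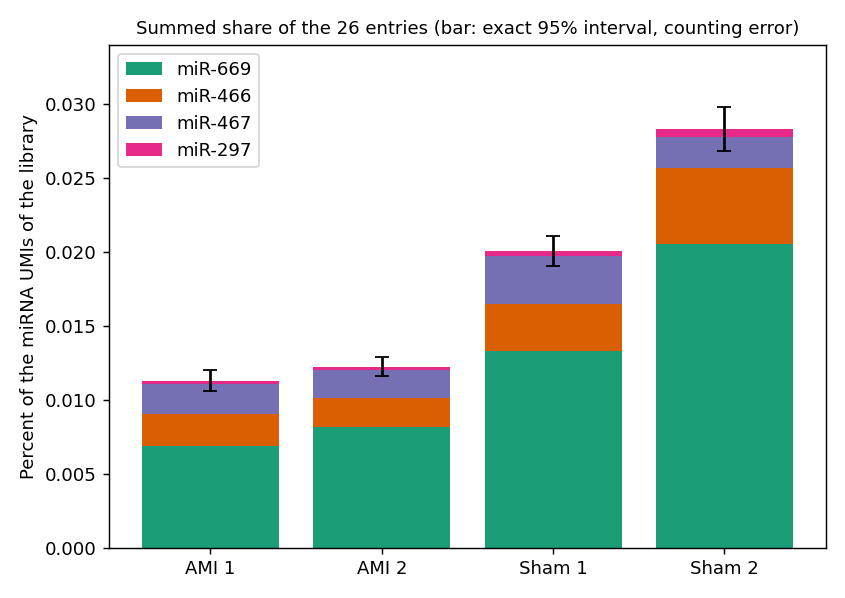
Bars give the 26 entries as a percent of the miRNA UMIs of each library, stacked by miRNA number, and the whiskers are exact 95% intervals of the sum, which cover counting error only. The AMI bars end at 0.0113% and 0.0122% and the Sham bars at 0.0200% and 0.0283%, with miR-669 the largest block in each.

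miR-669 made up most of the sum. Its 7 entries held 60.8% and 66.7% of these UMIs in the AMI libraries, against 66.4% and 72.6% in the Sham libraries. At 70.0 and 96.4 CPM in AMI 1 and AMI 2, against 132 and 172 CPM for Sham 1 and Sham 2, the summed level of miR-669 did not overlap between the groups. The 12 entries of miR-466 summed to 22.4 and 23.5 CPM in the AMI libraries, against 31.3 and 42.9 CPM in the Sham libraries, also without overlap. For the 6 entries of miR-467, at 21.03 and 22.4 CPM in the AMI libraries, against 31.9 and 17.6 CPM in the Sham libraries, the groups overlapped, because Sham 2 was below both AMI libraries. The 18 entries with all hairpins in Sfmbt2 summed to 105 and 134 CPM in the AMI libraries, against 187 and 212 CPM in the Sham libraries. The 5 entries with none there summed to 8.0 and 6.33 CPM in the AMI libraries but 7.17 and 19.7 CPM in the Sham libraries, so only Sham 2 was high.

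Individually these miRNAs were scarce. The most abundant, miR-669c-5p, ranked 225 among the 921 miRNA entries, and the median of the 26 was 19.1 UMIs per library, beside 42.3 over all miRNA entries. The 2 leading entries, miR-669c-5p and the joint entry of miR-669a-3p and miR-669o-3p, held 52.8% and 58.7% of the UMIs of all 26 in AMI 1 and AMI 2, against 59.7% and 64.8% for Sham 1 and Sham 2. In all, 22 entries had at least 1 UMI in every library, and 15 had at least 10. The members had 1.09 and 1.08 reads per UMI in the AMI libraries, against 1.12 and 1.27 in the Sham libraries, where all miRNA entries had 1.16, 1.19, 1.17 and 1.28 in the same order.

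**Figure D3:**
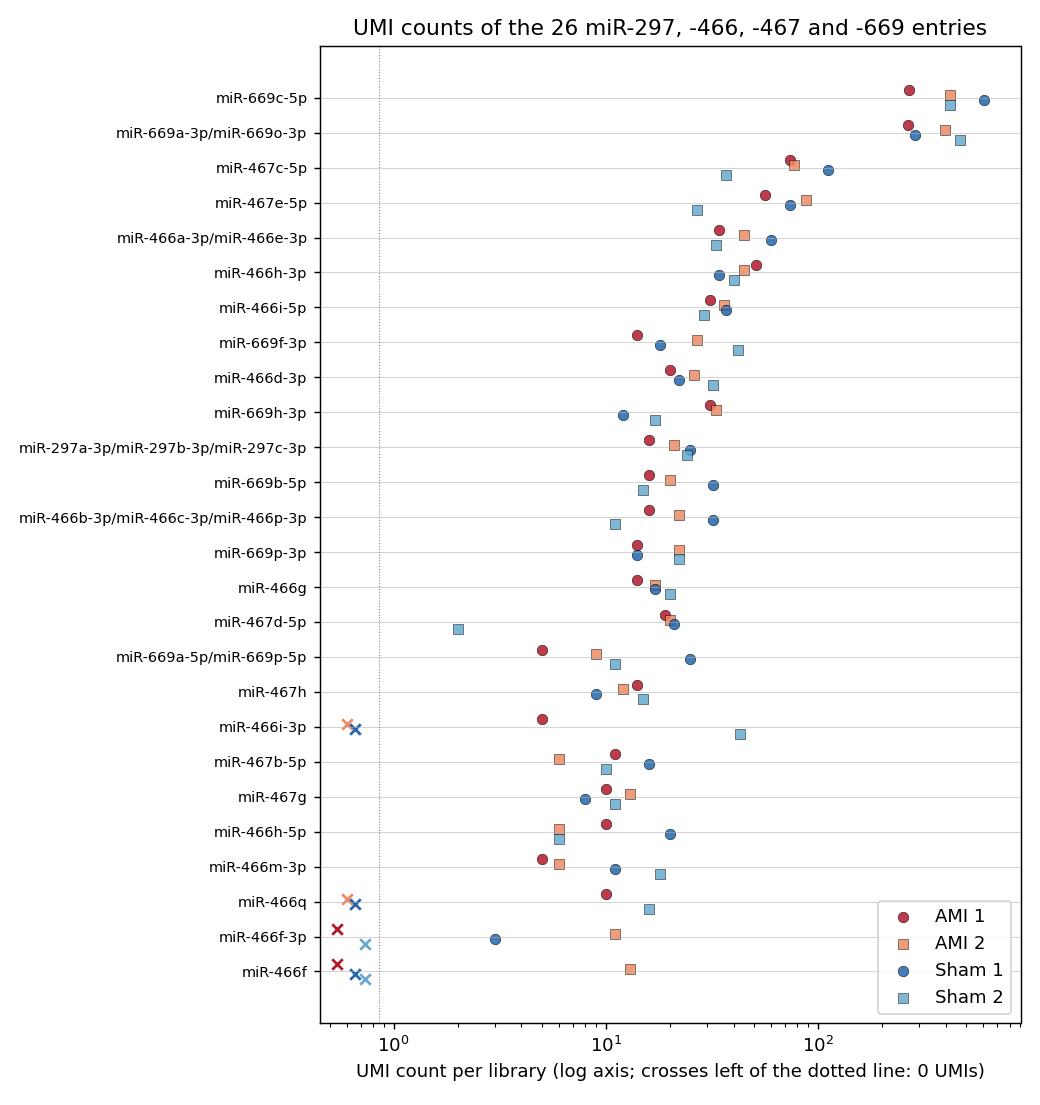
Each row is 1 of the 26 entries, ordered by mean UMI count, and each point is the UMI count of 1 library on a log axis, with crosses at the left for 0 UMIs. miR-669c-5p and the joint miR-669a-3p entry stand above 260 UMIs in every library, and crosses appear for 4 entries.

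None of these miRNAs passed an adjusted p of 0.05 between AMI and Sham plasma (edgeR, quasi-likelihood), although most had fitted levels that were lower in AMI. The test was fitted on all miRNA entries, of which 772 passed the filter on low counts, and 212 (27.5%) passed the test, 98 (12.7%) lower and 114 (14.8%) higher in AMI. Of the 26 entries 21 passed the filter, and 0 of the 21 passed the test. At an unadjusted p under 0.05 there were 4 of the 21, beside 39.2% of all tested miRNAs, and by DESeq2 3 passed, beside 32.5%. The log2 fold change was below 0 in 18 of the 21, beside 370 of all 772 (47.9%), and its median was −0.72, beside 0.04 over all tested miRNAs, with quartiles of −0.70 and 0.81. Both AMI libraries were below both Sham libraries in 10 of the 21, beside 30.4% of all tested miRNAs, and above them in 1, beside 35%. The tested entries had a median of 21.5 UMIs per library, against 76.3 for all tested miRNAs, and standard errors of the log2 fold change were 0.36 to 0.78.

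The number that passed moved with the libraries and the scaling. Without Sham 1 it was 5 of 24 tested (36.6% of all miRNAs passed), without Sham 2 it was 2 of 22 (32.0%), and without AMI 1 or AMI 2 it was 0 of 24 (10.1% and 11.7%). With library size as the only scaling 3 passed (30.2% of all) and 19 of 21 were below 0, while the median over all miRNAs shifted by −0.27. With the 6 reference miRNAs of the study as the scale 0 passed (26.3%) and 17 of 21 were below 0, and that median shifted by 0.17. Without a filter 2 of 26 passed (27.8%), and with at least 10 UMIs required in every library 0 of 15 (28.3%). The median of these miRNAs was −1.04 and −0.57 under those scalings, and −0.45 without Sham 2.

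**Figure D4:**
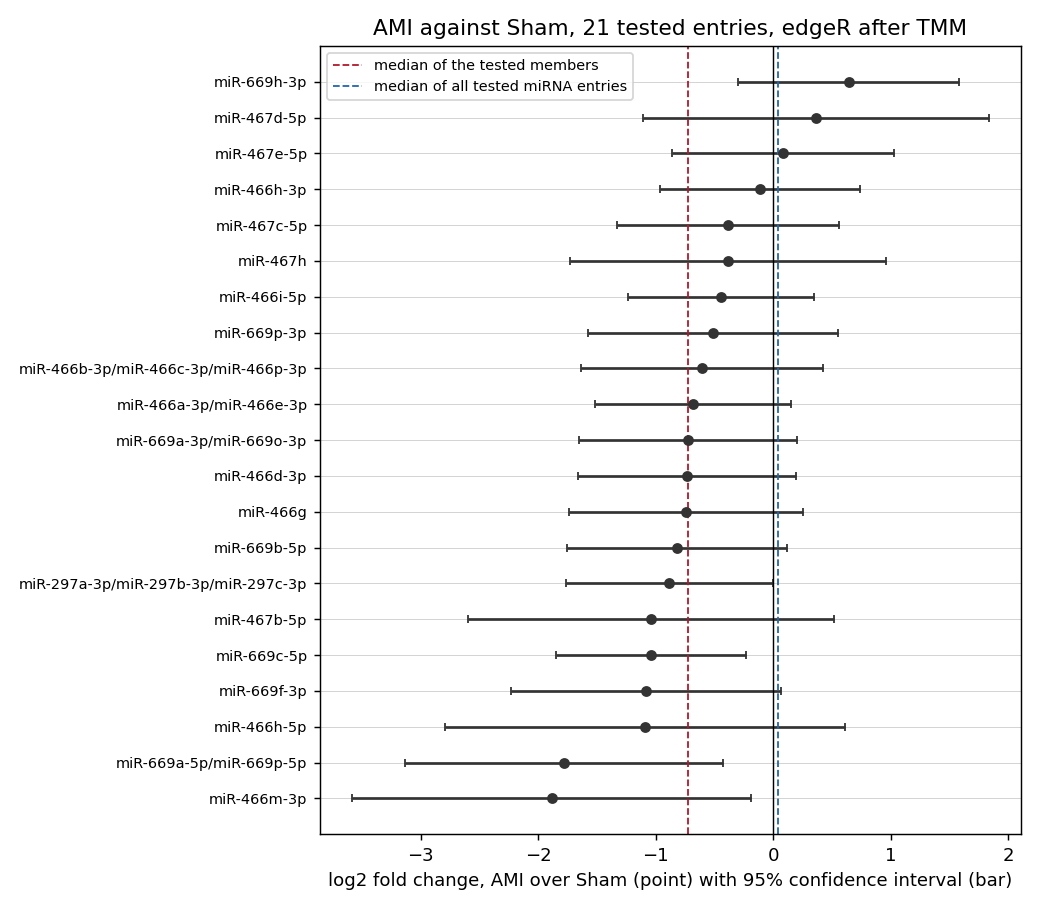
Points are log2 fold changes of AMI over Sham from edgeR for the 21 tested entries, with 95% confidence intervals as bars. Of the 21 points 18 lie left of 0, the dashed red line marks their median at −0.72 and the dashed blue line that of all tested miRNAs at 0.04, and 0 of the 21 passed the test.

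miR-669c-5p, the most abundant of these miRNAs, came closest to the threshold together with the joint entry of miR-669a-5p and miR-669p-5p. miR-669c-5p, from Mir669c in Sfmbt2 (chromosome 2, 10509296 to 10509404), had 267 UMIs in AMI 1 and 420 in AMI 2, against 603 in Sham 1 and 419 in Sham 2. Scaled, this was 37.0 ± 9.24 CPM in AMI and 76.2 ± 5.35 CPM in Sham plasma (SD, n = 2 libraries each), and the groups did not overlap. The log2 fold change was −1.04 (standard error, SE, 0.37, 95% interval −1.85 to −0.23, adjusted p = 0.0560 from edgeR). It passed under 9 of 15 other settings, with adjusted p from 0.00280 without Sham 2 to 0.556 without AMI 1. miR-669a-5p and miR-669p-5p, counted as 1 entry, yielded 5 and 9 UMIs from the AMI libraries, against 25 and 11 in the Sham libraries. Its log2 fold change was −1.78 (SE 0.62, adjusted p = 0.0522 from edgeR), and −1.32 without Sham 1. It passed under 7 of 14 other settings. The lowest adjusted p, 0.0159 from edgeR, came from a fit added after the data were seen. Both counts of settings include fits added in this way, and all settings reuse these libraries.

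The 3p entry that shares miR-669a with it was far more abundant. miR-669a-3p and miR-669o-3p, also 1 entry, yielded 266 and 398 UMIs from the AMI libraries and 287 in Sham 1, and its scaled level was 30.4, 41.3, 38.1 and 80.6 CPM for AMI 1, AMI 2, Sham 1 and Sham 2. Sham 1 lay between the AMI libraries and Sham 2 above them all, and the log2 fold change was −0.72 (SE 0.42, adjusted p = 0.229 from edgeR). Without Sham 1 it was −1.17 (adjusted p = 0.00150) and without Sham 2 it was −0.12 (adjusted p = 0.842). The UMIs of this entry exceeded those of the joint 5p entry 53.2-fold in AMI 1, 44.2-fold in AMI 2 and 42.4-fold in Sham 2 but only 11.5-fold in Sham 1. The 5p and 3p entries pool partly different names, so the ratio is not that of 1 hairpin. miR-669p-3p has an entry of its own, with 14 and 22 UMIs in the AMI libraries, against 14 and 22 in the Sham libraries. Scaled, this was 1.60 and 2.28 CPM in AMI 1 and AMI 2, against 1.86 and 3.80 CPM for Sham 1 and Sham 2. The log2 fold change of miR-669p-3p was −0.51 (adjusted p = 0.476 from edgeR), and it was −0.96 without Sham 1 and 0.04 without Sham 2.

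Among the other miR-669 entries, miR-669f-3p, from Mir669f (chromosome 2, 10467229 to 10467349), yielded 14 and 27 UMIs from the AMI libraries, against 18 and 42 in the Sham libraries, and its log2 fold change was −1.08 (adjusted p = 0.150 from edgeR). Without Sham 1 it was −1.71 (adjusted p = 0.000317) and without Sham 2 it was −0.14 (adjusted p = 0.888). miR-669b-5p yielded 16 and 20 UMIs from the AMI libraries, against 32 and 15 in the Sham libraries. Its scaled levels did not overlap between the groups, and its log2 fold change was −0.82 (adjusted p = 0.179). miR-669h-3p, from the last of the hairpins in Sfmbt2, went the other way. It yielded 31 and 33 UMIs from the AMI libraries, against 12 and 17 in the Sham libraries, or 3.48 ± 0.0841 and 2.27 ± 0.953 CPM (SD, n = 2), a log2 fold change at 0.65 (adjusted p = 0.294), and was the 1 tested entry with both AMI libraries above both Sham libraries.

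In the miR-467 family, whose entries with an arm in their name are all 5p, Sham 2 was the lowest library for miR-467c-5p, miR-467d-5p and miR-467e-5p. It was the highest library for miR-467g and miR-467h, and for miR-467b-5p it lay above both AMI libraries and below Sham 1. miR-467c-5p yielded 74 and 77 UMIs from the AMI libraries, against 112 and 37 in the Sham libraries, or 8.46 and 7.99 CPM in AMI 1 and AMI 2, against 14.9 and 6.40 CPM for Sham 1 and Sham 2. The 2 AMI libraries lay between the 2 Sham libraries, and the log2 fold change, −0.38 (adjusted p = 0.553 from edgeR), turned to 0.36 without Sham 1 and was −0.88 without Sham 2. miR-467e-5p yielded 56 and 88 UMIs from the AMI libraries, against 74 and 27 in the Sham libraries, and its log2 fold change was 0.09 (adjusted p = 0.939), which was −0.17 when scaled by library size alone. The lowest count of the family was that of miR-467d-5p in Sham 2, 2 UMIs beside 19, 20 and 21 in AMI 1, AMI 2 and Sham 1. This entry was singled out after its values were seen.

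In the miR-466 family the most abundant entries did not pass the test. miR-466h-3p, from Mir466h in Sfmbt2, yielded 51 and 45 UMIs from the AMI libraries, against 34 and 40 in the Sham libraries, a log2 fold change of −0.11 (95% interval −0.97 to 0.74, adjusted p = 0.891), and 0.056 when scaled by the 6 references. The joint entry of miR-466a-3p and miR-466e-3p yielded 34 and 45 UMIs from the AMI libraries, against 60 and 33 in the Sham libraries (log2 fold change −0.68, adjusted p = 0.207). miR-466i-5p, from chromosome 13, had 31, 36, 37 and 29 UMIs in AMI 1, AMI 2, Sham 1 and Sham 2, at 3.64 ± 0.136 CPM in AMI and 4.96 ± 0.0738 CPM in Sham plasma (SD, n = 2), and its log2 fold change was −0.44 (adjusted p = 0.393). miR-466d-3p yielded 20 and 26 UMIs from the AMI libraries, against 22 and 32 in the Sham libraries (log2 fold change −0.73, adjusted p = 0.222). Without Sham 1 this was −1.15 (adjusted p = 0.0277) and without Sham 2 it was −0.25 (adjusted p = 0.766). The lowest log2 fold change of all 21 was that of miR-466m-3p, from the first of the hairpins in Sfmbt2, with 5 and 6 UMIs in the AMI libraries, against 11 and 18 in the Sham libraries (−1.89, 95% interval −3.59 to −0.19, adjusted p = 0.0925). It passed by DESeq2 (adjusted p = 0.0463), on read counts (0.0232), with AMI 1 and Sham 2, and AMI 2 and Sham 1, as blocks (0.0340) and with entries that were 0 throughout a pair left out (0.0211), and its adjusted p was 0.708 without Sham 2. It was named after its values were seen. The counts of miR-466g, miR-466h-5p, miR-467b-5p, miR-467g and miR-467h were 6 to 20 UMIs in every library.

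Joint entries, rows in which several mature names share 1 count, were frequent in this group. They were 5 of the 26 entries (19.2%) beside 8 of all 921 miRNA entries (0.869%), so that 5 of the 8 joint miRNA entries of the table carry these numbers. The 5 pool 12 of the 33 names, and a change in 1 name of a joint entry cannot be told apart from one in another. They held 33.4% and 35.5% of the UMIs of the group in the AMI libraries, against 28.8% and 39.9% in the Sham libraries. The joint entry of miR-297a-3p, miR-297b-3p and miR-297c-3p, the only one of miR-297, yielded 16 and 21 UMIs from the AMI libraries, against 25 and 24 in the Sham libraries. Its levels did not overlap between the groups and its log2 fold change was −0.88 (adjusted p = 0.127 from edgeR). That of miR-466b-3p, miR-466c-3p and miR-466p-3p, which matches 12 hairpins, yielded 16 and 22 UMIs from the AMI libraries, against 32 and 11 in the Sham libraries, a log2 fold change at −0.60 (adjusted p = 0.375) that turned to 0.11 without Sham 1 and was −1.07 without Sham 2.

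Counts of 0 occurred in 4 entries, and in each of them they covered AMI 1 with Sham 2 or AMI 2 with Sham 1. miR-466f had 13 UMIs in AMI 2 and 0 in AMI 1, Sham 1 and Sham 2. miR-466f-3p had 11 UMIs in AMI 2 and 3 in Sham 1, and 0 in AMI 1 and Sham 2. miR-466q had 10 UMIs in AMI 1 and 16 in Sham 2, and 0 in AMI 2 and Sham 1. miR-466i-3p had 5 UMIs in AMI 1 and 43 in Sham 2, and likewise 0 in AMI 2 and Sham 1. In these pairs the larger count was 1 to 9 in 0 of the 26 entries, and it was either 0 or at least 10. A 0 in both cannot be told apart from a count under 10, and 4 of 26 (15.4%) had one, beside 150 of 921 miRNA entries (16.3%). None of the 4 passed the filter. miR-466i-3p passed the test only in the fit without Sham 1 (log2 fold change −4.69, adjusted p = 1.31e-11 from edgeR), where 1 Sham library with 43 UMIs was set against 5 and 0. All 4 have a hairpin outside Sfmbt2, as do 4 entries with no count of 0, the joint miR-297 entry, miR-466i-5p, miR-467g and miR-467h. The arms of Mir466i differed, as its 5p product had 29 to 37 UMIs in every library while the 3p product had 0 to 43.

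The 2 Sham libraries differed from each other by arm, a comparison made after the values were seen. Of the 9 tested 5p entries 8 were higher in Sham 1 than in Sham 2, with a median log2 ratio of 0.80. Of the 10 tested 3p entries 8 were higher in Sham 2, with a median log2 ratio of Sham 1 to Sham 2 of −0.90. Over all tested miRNAs the 5p entries were higher in Sham 1 in 161 of 318 and the 3p entries in 147 of 328, with median log2 ratios of 0.02 and −0.09. For the AMI libraries the median log2 ratio of AMI 1 to AMI 2 was −0.08 for the 5p and −0.26 for the 3p entries. Counted over UMIs with an arm in their name, the 5p share was 50.9% (exact 95% interval 47.7% to 54.1%) in AMI 1 and 51.0% (48.3% to 53.7%) in AMI 2. It was 64.5% (62.0% to 66.9%) in Sham 1 and 42.6% (39.9% to 45.4%) in Sham 2. Over all miRNA entries the 5p share was 68.6%, 69.8%, 72.8% and 72.3% in AMI 1, AMI 2, Sham 1 and Sham 2. The summed 5p level was 55.9 and 70.8 CPM in the AMI libraries, against 125 and 96.1 CPM in the Sham libraries, and the summed 3p level 53.9 and 68.1 CPM in the AMI libraries, against 68.7 and 129 CPM in the Sham libraries.

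**Figure D5:**
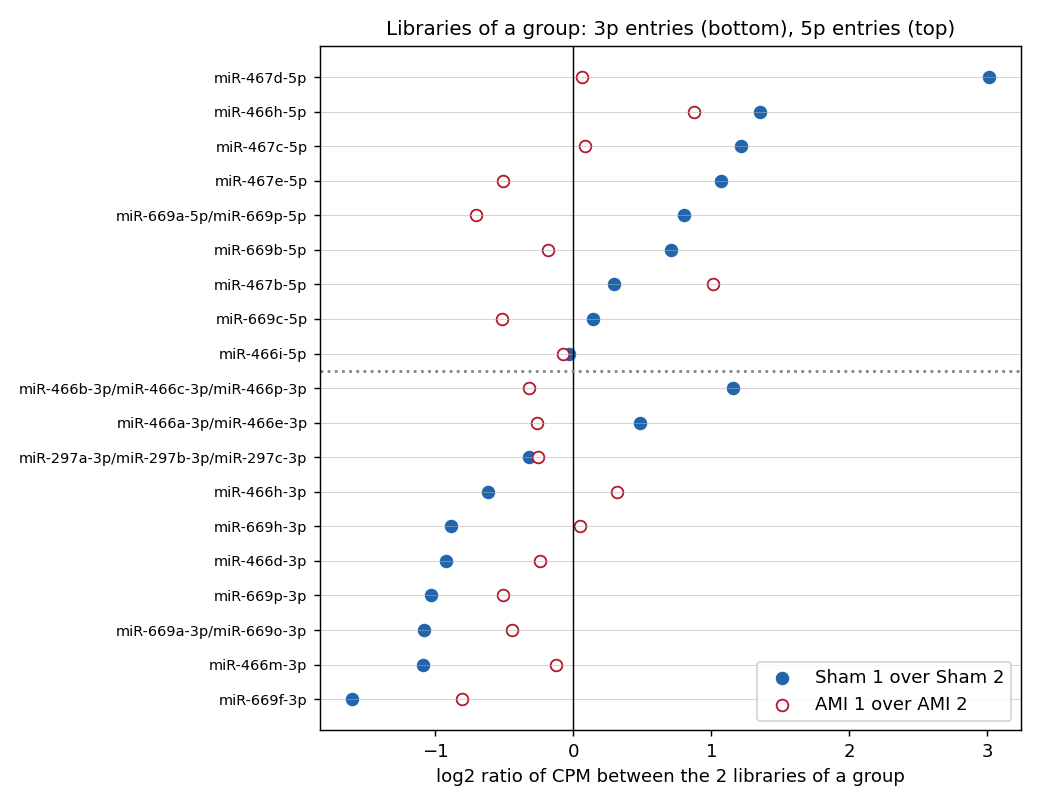
Each row is 1 of the 19 tested entries with an arm in its name, 3p entries below and 5p entries above the dotted line, and the axis is the log2 ratio of CPM between libraries of the same group. Filled points (Sham 1 over Sham 2) lie right of 0 in 8 of 9 5p entries and left of 0 in 8 of 10 3p entries, while open points (AMI 1 over AMI 2) lie right of 0 in 4 of 9 and 2 of 10.

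The sequence features of the entries inside Sfmbt2 could not be compared, since all 4 sequences come from outside it. The seeds of the 4 members with a RefSeq sequence were searched only in entries that have such a sequence, and none of those shared a seed. Members without a sequence could not be searched, so whether they share these seeds was not tested. The run UGUGUGU, searched with its reverse complement ACACACA, was found outside these families in 3 miRNAs that have an entry, shown here with the run in capitals. Among the 4 members with a sequence ACACACA is in miR-466i-3p, miR-466q and miR-467g, and UGUGUGU is in none, so the first 2 miRNAs shown hold only the reverse complement of a run found in members.
miR-574-5p: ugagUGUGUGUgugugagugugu
miR-672-5p: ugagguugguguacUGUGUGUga
miR-672-3p: ACACACAgucacuaucuucga
Of the 1679 mature miRNAs with a RefSeq sequence, UGUGUGU is in 11 (0.655%) and ACACACA in 5 (0.298%). Both shares again leave out the members without a sequence. The 2 of these 3 miRNAs that passed the filter also passed the test, both lower in AMI plasma. Of all 772 tested miRNAs 98 (12.7%) did so. Whether the run has a part in this was not tested. miR-574-5p yielded 155 and 152 UMIs from the AMI libraries, against 264 and 289 in the Sham libraries, with a log2 fold change at −1.34 (SE 0.37, adjusted p = 0.0196 from edgeR). miR-672-5p, from the X chromosome, yielded 82 and 106 UMIs from the AMI libraries, against 197 and 172 in the Sham libraries (−1.45, SE 0.35, adjusted p = 0.0112). The opposite arm, miR-672-3p, yielded 10 and 23 UMIs from the AMI libraries, against 8 and 3 in the Sham libraries, and did not pass the filter.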

How the data were processed

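Plasma small RNA of 2 AMI and 2 Sham libraries was analysed. For each miRNA or piRNA entry the deposited table gives counts of UMIs and of reads, whole numbers with no normalization. The submitters' processing notes name bcl2fastq 2.18.0.12 and mm10, while an aligner and a miRNA annotation were not given in the sources used here. A line that only heads the piRNA block was left out. UMI counts of 921 miRNA entries were fitted with edgeR 4.0.16 (filterByExpr, TMM, robust quasi-likelihood, two-sided, Benjamini-Hochberg over 772 entries, threshold 0.05) in R 4.3.3, after tests on simulated data. CPM use TMM factors of 0.978, 0.845, 1.01 and 1.20 for AMI 1, AMI 2, Sham 1 and Sham 2. Members and lists were chosen with earlier results of these data known. Named were members past the threshold without overlap of the groups, the 12 with the largest mean count, joint entries that passed the filter, and entries at 0 in both libraries of a group or of the pairs AMI 1 with Sham 2 and AMI 2 with Sham 1. The 8 members outside this rule are named as well. Among them miR-669p-3p, miR-466m-3p and miR-467d-5p are given with values of their own. Alternatives were DESeq2 1.42.0, 3 scalings, 2 filters, read counts, piRNA entries added, the replicate block and each library left out. A crossed block on these pairs, and a fit that left out entries with 0 throughout a pair, were added after seeing the data. Hairpins and sequences came from RefSeq (GRCm38.p6), and introns from GENCODE M21.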

Additional observations from a re-analysis of the deposited data

How the results depend on the processing

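Of 21 tested members 0 passed in edgeR, where 27.5% of all tested miRNAs did, and with scaling by the 6 references (26.3%). Of 15 with at least 10 UMIs in every library 0 passed (28.3%). By DESeq2 3 of 21 passed (32.5% of all tested), and 3 with scaling by library size (30.2%). With entries that were 0 throughout a pair left out 3 of 21 passed (34.1%). With RLE size factors 2 of 21 passed (31.9%), and 2 with piRNA entries added (34.4%). With no filter 2 of 26 passed (27.8%), and on read counts 2 of 22 (31.5%). Leaving out 1 library gave 0 to 5. In these fits the lone library of a group is assumed to vary like those of the other group. The labels pair libraries by number only, and same-numbered libraries deviated from the group means with r = −0.37 over 772 miRNAs (0.01 over the 750 that were not 0 throughout a pair). With the replicate number as a block 0 passed and the median was −0.67, and all 772 gave 172 calls in place of 212. With the crossed block, chosen after seeing the data like the fit on the 750, 2 passed, and 249 in all. The median of the members was below 0 in every fit listed here, at −1.04 with scaling by library size and −0.87 to −0.45 with 1 library left out. The summed share in AMI was 0.0108% on read counts, 0.00769% without joint entries and 0.00841% without miR-669c-5p, and in Sham plasma 0.0156% and 0.0158% without these. Directions turned for miR-467e-5p with scaling by library size (−0.17) and without AMI 2 (−0.19), ranging from −0.36 to 0.73 with 1 library left out, for miR-466h-3p with scaling by the 6 references (0.056) and without AMI 2 (0.035), ranging from −0.40 to 0.18 with 1 library left out, and without Sham 1 for miR-467c-5p (0.36, range −0.88 to 0.36) and the joint entry of miR-466b-3p, miR-466c-3p and miR-466p-3p (0.11, range −1.07 to 0.11). In each of these the cause was not tested. Of the 209 other values of named members, 180 kept their direction and side of the threshold, 21 passed it and 8 turned. Because of their low counts 5 members were not tested in the fit reported.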
